A study of Mus musculus with 42 samples.

Results

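Pdyn codes for prodynorphin, the precursor of the dynorphin opioid peptides. It was followed on 42 Affymetrix arrays of mouse striatum (STR) and hippocampus (HPC). The gene was taken by its annotation: 1 probe set was assigned to Pdyn alone, out of 34945 probe sets assigned to a single gene, and it stood for 1 of 18193 genes measured. Pdyn was chosen by its measured striatal values, which were higher in labelled knockout and in inhibitor-treated tissue. Its striatal differences between groups are therefore descriptions, with errors but no test. Its hippocampal differences had no part in that choice and were tested. Its difference between the regions was also tested, but it uses the striatal arrays of untreated wild-type tissue, whose values entered the choice.

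Prodynorphin is cut by prohormone convertases in dense core vesicles, and the released dynorphins act mainly on the kappa opioid receptor. In striatum the gene is known as a product of projection neurons of the direct pathway, which carry the dopamine D1 receptor, and its transcription is known to follow cAMP signalling and the factor CREB. In hippocampus the best known source is the granule cell of the dentate gyrus. PDE10A, the enzyme at which the study was aimed, degrades both cyclic nucleotides, cAMP and cGMP, and projection neurons of striatum are rich in it.

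All mice were of the C57BL6 strain, and the tissue was microdissected and snap-frozen. Wild-type (WT) mice and mice labelled PDE10A KO had each received vehicle (Veh) or a PDE10 inhibitor (PDE10i), which makes 8 groups over the 2 regions. In striatum, 5 WT arrays were of vehicle and 6 of inhibitor, and 5 KO arrays were of vehicle and 4 of inhibitor. In hippocampus, 6 WT arrays were of vehicle and 6 of inhibitor, and 5 KO arrays were of vehicle and 5 of inhibitor. The sources used here do not give the compound, its dose, the time after dosing, the animals' age and sex or the part of Pde10a removed. They also do not say whether each array of a group stands for its own animal, so errors and p-values cover the spread among these samples alone, and that spread may be technical. Values are RMA log2 signals, on which a difference of 1 is a 2-fold difference, and precision is limited by how many arrays a group has.

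The labels and the tissue were checked first. Pde10a, read from its probe set of highest mean, was not lower in the arrays labelled KO. Its striatal log2 level was 12.32 ± 0.26 (SD, n = 5) in WT vehicle and 12.35 ± 0.22 (n = 5) in KO vehicle. That probe set thus gave no check of the genotype, and probes outside a deletion do not report it. Any other Pde10a probe sets are not reported here. Pde10a lies on chromosome 17, and a score was taken over 15 other genes of that chromosome. They were those with the smallest limma p between labelled KO and WT in the other region. The score was scaled to a median of 0 in WT vehicle and 1 in KO inhibitor arrays. These 2 groups set the scale, so the score checks the other groups more than them. It fell on the other genotype's side of 0.5 on 8 arrays. In striatum these were KO vehicle 25 (0.10) and WT inhibitor 13, 14 and 15 (0.59, 0.79 and 0.54). In hippocampus they were KO vehicle 25 and 26 (0.00 and 0.11) and WT inhibitor 12 and 14 (1.04 and 0.79). They are called arrays of doubtful score below, and every statement on KO tissue rests on the labels. Between the regions in WT vehicle tissue limma called 6160 of all genes, 33.9%, of which 2901 were higher in striatum and 3259 lower. Of 21 genes shared by striatal projection neurons, 19 were higher in WT vehicle striatum than in WT vehicle hippocampus and 1 was lower. Of 13 dentate granule cell genes 9 were lower in striatum and 2 higher, and of 11 genes of CA pyramidal cells 9 were lower.

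The 250 bases before the more upstream of the 2 annotated starts of Pdyn are shown because Pdyn is known as a cAMP-responsive gene. They come from RefSeq, build GRCm38.p6, chr2:129699939-129700188, minus strand, and are written 5′ to 3′ in the direction of the transcript. Capitals mark the only match to the motifs searched.

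Pdyn upstream region: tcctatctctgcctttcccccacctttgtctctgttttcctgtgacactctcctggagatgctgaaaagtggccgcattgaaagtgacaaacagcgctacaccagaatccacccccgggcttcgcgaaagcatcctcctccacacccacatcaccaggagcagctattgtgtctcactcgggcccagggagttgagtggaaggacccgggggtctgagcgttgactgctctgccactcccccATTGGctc

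The capitals are a CCAAT box read on the opposite strand, and its first base lies at position -8 from the start. Both strands were searched for 6 motifs. CCAAT occurs in 33.8% of 32851 RefSeq promoter windows of the same length. The full cAMP response element TGACGTCA (1.55% of windows), its shorter form TGACG (17.8%, which also lies inside the full element), the AP-1 site TGANTCA (6.75%), the E-box CACGTG (6.02%) and the TATA box TATAAA (12.4%) had no match in this window. The window before the other annotated start, chr2:129698659-129698908, held 1 CCAAT match, at position -102, and none of the other letters. A match is a description of letters and not a site of binding, and no match says only that these letters are not in these windows. Which start the RNA on these arrays came from was not tested.

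In WT vehicle striatum, Pdyn lay at log2 8.17, 7.89, 8.18, 8.09 and 7.83 on arrays 1 to 5 (mean 8.03 ± 0.16, SD, n = 5). In WT inhibitor striatum it lay at 8.42, 8.82, 8.81, 8.998, 9.25 and 8.80 on arrays 10 to 15 (8.85 ± 0.27, n = 6). All 6 inhibitor arrays were above all 5 vehicle arrays, with array 10 nearest to them. In KO vehicle striatum it lay at 8.73, 9.31, 9.79, 9.24 and 10.01 on arrays 25, 26, 28, 29 and 30 (9.42 ± 0.50, n = 5). The groups again did not overlap with WT vehicle, and the lowest KO vehicle array was array 25, which is the one of doubtful score. In KO inhibitor striatum Pdyn lay at 9.08, 9.09, 9.55 and 9.51 on arrays 34, 35, 37 and 39 (9.31 ± 0.25, n = 4), all within the range of the KO vehicle arrays. Without KO vehicle 25 the lowest KO vehicle value was 9.24, and KO inhibitor 34 and 35 lay below it.

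**Figure D1:**
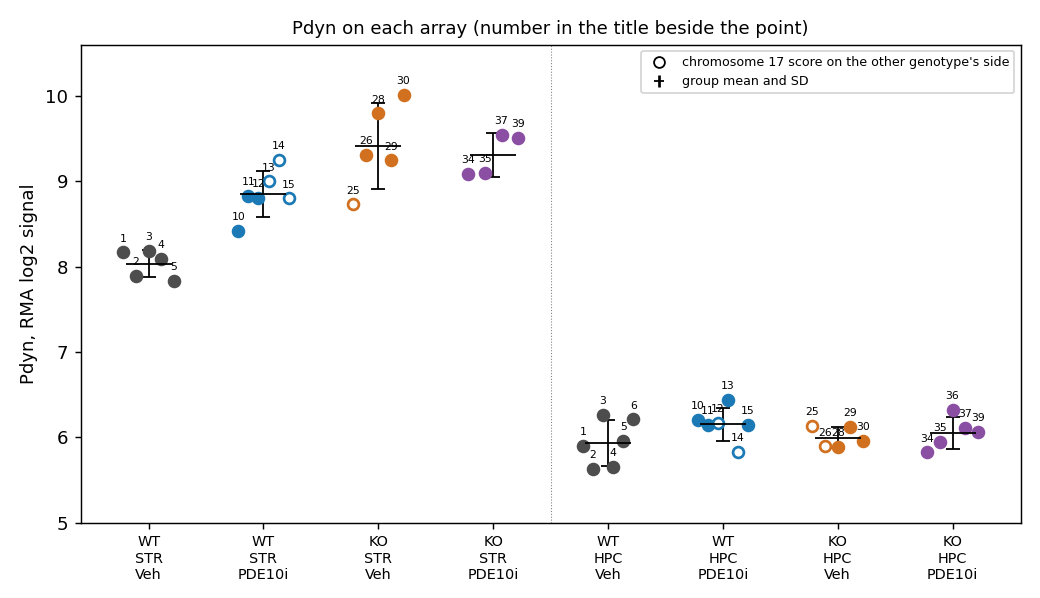
RMA log2 signal of Pdyn (vertical axis) on each of the 42 arrays in the 8 groups (horizontal axis), with each array's number, the group mean and its SD; open circles are the arrays of doubtful score. The 5 WT vehicle striatal arrays (7.83 to 8.18) lie below all 15 other striatal arrays (8.42 to 10.01), and all 22 hippocampal arrays lie between 5.63 and 6.44.

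As geometric means, the striatal signal was 262 in WT vehicle, 461 in WT inhibitor, 684 in KO vehicle and 634 in KO inhibitor arrays. The order of the group means was thus WT vehicle, WT inhibitor, KO inhibitor and KO vehicle. WT inhibitor and KO inhibitor arrays overlapped only through WT inhibitor 14 (9.25), an array of doubtful score. The next WT inhibitor array, 13 (8.998, also of doubtful score), lay below the lowest KO inhibitor array (9.08). The 2 KO groups, next to each other at the top, did not differ beyond their spread. In bulk tissue, fewer cells of a type and less RNA per cell cannot be told apart, and the same holds for more of either.

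The inhibitor difference in WT striatum was 0.82 ± 0.18 on the log2 scale (SE), or 1.76-fold (95% interval 1.36 to 2.28). It ranked 21st among the rises of all 18193 genes. In that comparison limma called 33 genes at an adjusted p under 0.05, which is 0.181% of those tested. The lowest inhibitor array lay above the highest vehicle array for 177 genes, or 0.973%. Without the 3 WT inhibitor arrays of doubtful score the group mean was 8.68 ± 0.23 (n = 3) and the difference 0.65 ± 0.17. The 3 arrays left out held the highest values of the group, on arrays 13 and 14, and the remaining 3 still lay above all vehicle arrays. Those remaining 3, arrays 10, 11 and 12, also had higher means over a list of vascular genes (8.86, 8.90 and 8.97) than arrays 13, 14 and 15 (8.45, 8.39 and 8.55). They thus differed from the arrays left out in more than the score, and the part of this in the Pdyn difference was not tested.

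The difference of labelled KO from WT under vehicle was larger, 1.39 ± 0.19, or 2.61-fold (1.99 to 3.42), and was the third largest rise of all genes. There 25 genes were called, 0.137% of those tested, and 97 genes, 0.533%, had every KO vehicle array above every WT vehicle array. Without KO vehicle 25 the group mean was 9.59 ± 0.38 (n = 4) and the difference 1.56 ± 0.16. Both differences share the 5 WT vehicle arrays, so low values on those arrays would raise both. All 15 other striatal arrays lay above the WT vehicle arrays for 15 genes, 0.0824% of those tested, and the gap for Pdyn, 0.24, was the second widest of them. The widest was that of Fam43a (0.30), and Slc7a8 (0.23) and Nnat (0.19) came next. These 3 genes are named after their values were seen, and Tmem41a, Rab3c, Afap1 and Tarsl2, described below for their likeness to Pdyn, were also among the 15.

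In KO striatum the inhibitor difference was -0.11 ± 0.20, with a 95% interval from -0.52 to 0.30, which holds 0 but leaves room for changes of either sign. It was -0.28 ± 0.17 without KO vehicle 25 and 0.04 without KO vehicle 30. Limma called 0 genes there (0%, 257 at an unadjusted p under 0.05). Under the inhibitor, KO striatum was above WT striatum by 0.46 ± 0.19 (1.37-fold, 1.04 to 1.81), and by 0.62 ± 0.18 without the arrays of doubtful score. No gene was called in that comparison by limma (0%, 2216 at an unadjusted p under 0.05), but 1187 were without those arrays. The inhibitor difference in WT exceeded that in KO by 0.93 ± 0.27 (95% interval 0.37 to 1.48), and by 0.93 ± 0.24 without the arrays of doubtful score. For this difference of differences limma called 0 genes (0%, 1346 at an unadjusted p under 0.05).

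**Figure D2:**
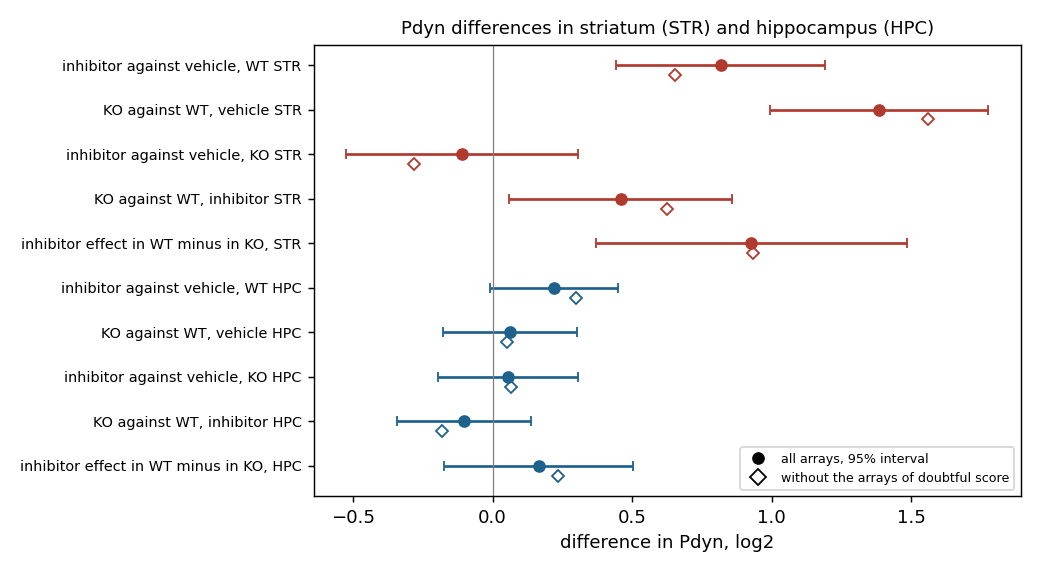
Differences in Pdyn on the log2 scale (horizontal axis) for 5 comparisons in striatum (red) and the same 5 in hippocampus (blue), with 95% intervals; open diamonds leave out the arrays of doubtful score. The striatal values, which chose the gene and are shown as a description, run from -0.11 (inhibitor in KO) to 1.39 (KO under vehicle), and the 5 hippocampal values run from -0.10 to 0.22.

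In hippocampus Pdyn was low in all groups, close to the median signal of an array (6.05 to 6.12). In WT vehicle it ran from 5.63 to 6.26 with a median of 5.93 (mean 5.93 ± 0.27, SD, n = 6), and in WT inhibitor from 5.83 to 6.44 with a median of 6.16 (6.15 ± 0.19, n = 6). In KO vehicle the arrays 25, 26, 28, 29 and 30 gave 6.13, 5.89, 5.89, 6.12 and 5.96 (6.00 ± 0.12, n = 5). In KO inhibitor the arrays 34, 35, 36, 37 and 39 gave 5.82, 5.95, 6.32, 6.11 and 6.07 (6.05 ± 0.19, n = 5). All 4 groups overlapped, and neighbours in the order of their means did not differ beyond their spread.

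No hippocampal difference passed in limma's test with Benjamini-Hochberg adjustment over all genes. The inhibitor difference in WT was 0.22 ± 0.11 (1.16-fold, 95% interval 0.99 to 1.36, adjusted p = 0.478), against 0 genes called (0%, 1948 at an unadjusted p under 0.05). Without the arrays of doubtful score it was 0.30, and without WT inhibitor 13 it was 0.16. That array had the highest hippocampal Pdyn value, 6.44, and the lowest mean over the dentate granule cell genes, 6.17, where the other hippocampal arrays had 7.14 to 7.99. Over the 22 hippocampal arrays, deviations of Pdyn from the group means had r = -0.29 with the dentate mean (permutation p = 0.199, adjusted 0.455). What part the tissue difference had in the Pdyn value of WT inhibitor 13 was not tested.

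The KO difference under vehicle was 0.06 ± 0.12 in hippocampus (adjusted p = 0.963, 0 genes called, 0%, 1205 at an unadjusted p under 0.05) and 0.05 without the arrays of doubtful score. Its 95% interval ran from -0.18 to 0.30. The inhibitor difference in KO was 0.06 ± 0.12 (adjusted p = 0.993, 0 genes called, 0%, 695 at an unadjusted p under 0.05), and 0.07 without those arrays. Under the inhibitor, KO differed from WT by -0.10 ± 0.12 (adjusted p = 0.681), where 1 gene was called, 0.0055% of those tested, and by -0.18 without them. The inhibitor difference in WT minus that in KO was 0.17 ± 0.16 (adjusted p = 0.678, 0 genes called, 0%, 2151 at an unadjusted p under 0.05), and 0.23 without them. Whether the striatal and hippocampal differences of Pdyn differ from each other was not tested, since the striatal values chose the gene.

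Between the regions the difference was wide. In WT vehicle tissue Pdyn was higher in striatum by 2.10 ± 0.15, or 4.28-fold (3.44 to 5.32; limma adjusted p = 5.46e-14), and all 5 striatal arrays lay above all 6 hippocampal arrays. This is a contrast in which many genes differed: 33.9% of all genes were called, and 1688 genes, 9.28%, had every striatal array above every hippocampal array. Among all genes Pdyn ranked 68th in the size of its rise. The WT vehicle striatal arrays of this contrast entered the choice of the gene, so its p is not free of that choice. As a description, the striatal excess was 6.47-fold in WT inhibitor, 10.7-fold in KO vehicle and 9.55-fold in KO inhibitor tissue. Those larger ratios follow the striatal values that chose the gene.

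The other members of the opioid family had small striatal differences, from -0.15 to 0.26 for the inhibitor in WT and from -0.05 to 0.37 for KO under vehicle. Of these 7 opioid peptide and receptor genes, 0 passed limma's test in either striatal effect. Of all genes, 0.181% were called for the inhibitor in WT and 0.137% for KO, with 1741 and 1081 at an unadjusted p under 0.05. The median difference of the 7 opioid genes was -0.02 for the inhibitor and 0.09 for KO, beside a median near 0 over all genes in both comparisons. Penk, the enkephalin precursor of indirect pathway neurons, had striatal means of 13.49 ± 0.23 (SD) in vehicle and 13.71 ± 0.06 in inhibitor WT arrays (n = 5 and 6), and of 13.58 ± 0.07 in vehicle and 13.52 ± 0.28 in inhibitor KO arrays (n = 5 and 4). Its inhibitor difference in WT was 0.23 ± 0.10 (adjusted p = 0.472) and its KO difference 0.09 ± 0.10 (adjusted p = 0.987).

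Oprk1, the kappa receptor on which dynorphins act, lay at 7.62 ± 0.28 in WT vehicle, 7.88 ± 0.19 in WT inhibitor, 7.98 ± 0.28 in KO vehicle and 7.88 ± 0.36 in KO inhibitor striatum (n = 5, 6, 5 and 4). The arrays of these groups overlapped. Its KO difference was 0.37 ± 0.16 (adjusted p = 0.789) and its inhibitor difference in WT 0.26 ± 0.15 (adjusted p = 0.650). In hippocampus its inhibitor difference in WT was 0.31 ± 0.11 (adjusted p = 0.366) and its KO difference 0.31 ± 0.11 (adjusted p = 0.636). Oprm1 and Oprd1, the mu and delta receptors, Pomc, the precursor of beta-endorphin, and Pnoc and Oprl1, the precursor of nociceptin and its receptor, had KO differences from -0.05 to 0.11 in striatum.

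Between the regions in WT vehicle tissue, 2 of the 7 opioid genes were higher in striatum and 2 lower, where 33.9% of all genes were called. Penk was higher by 4.57 ± 0.15 (adjusted p = 1.15e-24) and Oprk1 by 2.58 ± 0.14 (adjusted p = 4.44e-18). Pnoc was lower in striatum by 0.99 on the log2 scale (-0.99 ± 0.21, adjusted p = 0.000294) and Oprl1 by 0.73 (-0.73 ± 0.20, adjusted p = 0.00458).

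Genes that serve the making and storage of peptides are next to Pdyn in role. Of 13 such genes 0 passed in either striatal effect, where 0.181% and 0.137% of all genes were called. The median differences of the 13 were -0.01 for the inhibitor in WT and 0.16 for KO. Scg2, which codes for secretogranin II, a granin of dense core vesicles, had a KO difference of 0.71 ± 0.18 (adjusted p = 0.175) and an inhibitor difference of 0.42 ± 0.18 (adjusted p = 0.429). Ptprn, a membrane protein of those vesicles, had a KO difference of 0.46 ± 0.14 (adjusted p = 0.331). Pcsk1, a convertase that can cut prohormones, had -0.26 ± 0.16 for the inhibitor (adjusted p = 0.701) and 0.17 ± 0.17 for KO (adjusted p = 0.984). Pam, which amidates peptides, had 0.15 ± 0.11 (adjusted p = 0.736) and 0.24 ± 0.11 (adjusted p = 0.829) in the same order. Of 14 other neuropeptide precursors 0 passed in either effect, beside the same shares of all genes. Nts, the neurotensin precursor, had 2.48 ± 0.65 for the inhibitor (adjusted p = 0.151) and Cartpt, the CART precursor, 2.21 ± 0.65 for KO (adjusted p = 0.316).

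Markers of the neurons known to make dynorphin were followed in striatum. Of 10 other direct pathway genes 0 passed in either effect, where 0.181% and 0.137% of all genes were called. At those shares a count of 0 among 10 says little about the list. For the inhibitor in WT 9 of the 10 were positive with a median of 0.13, and for KO 4 were positive with a median of -0.05, where 49.8% and 49.4% of all genes were positive. Drd1, the dopamine D1 receptor, had striatal means of 11.62 ± 0.20 (SD) in vehicle and 11.71 ± 0.08 in inhibitor WT arrays (n = 5 and 6), and of 11.47 ± 0.17 in vehicle and 11.42 ± 0.33 in inhibitor KO arrays (n = 5 and 4). Its KO difference was -0.14 ± 0.12 (adjusted p = 0.972), and its means in both KO groups, where Pdyn was highest, lay below that of WT vehicle. Tac1, the substance P precursor that these neurons share with Pdyn, had 0.15 ± 0.13 for the inhibitor (adjusted p = 0.801) and 0.21 ± 0.13 for KO (adjusted p = 0.965).

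**Figure D3:**
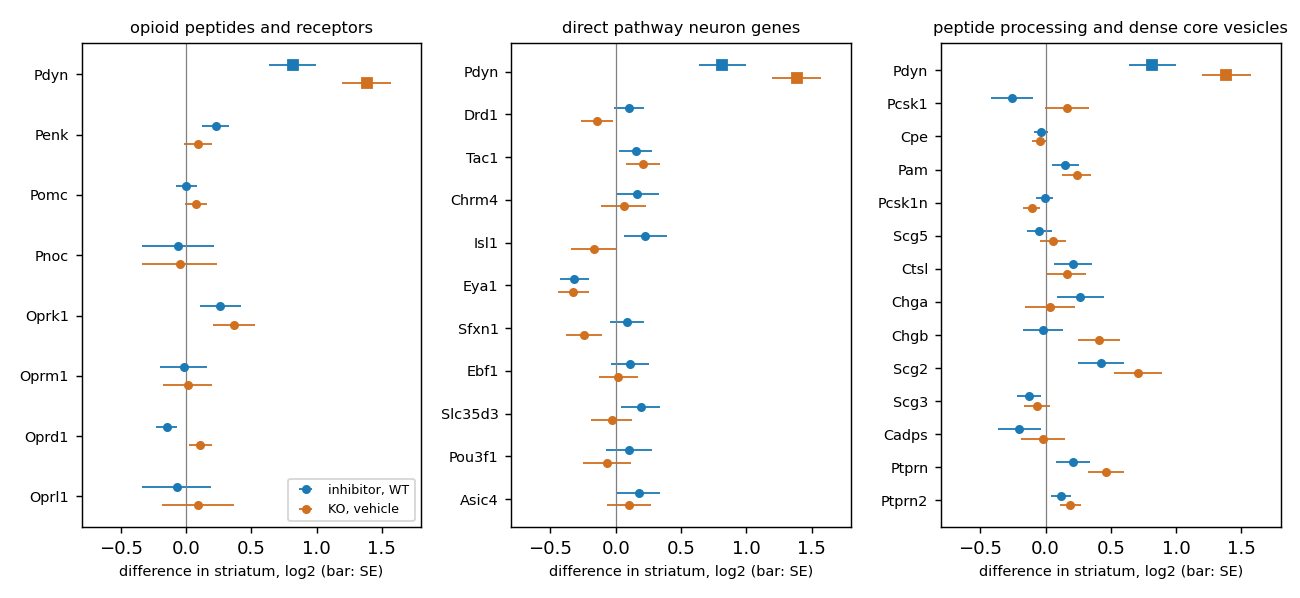
Log2 differences in striatum with their SE (horizontal axis) for Pdyn (squares) and for each measured gene of 3 lists (circles): opioid peptides and receptors, direct pathway neuron genes, and peptide processing and dense core vesicle genes. Blue is inhibitor against vehicle in WT and orange is KO against WT under vehicle; no listed gene other than Pdyn lies beyond 0.71, the KO difference of Scg2.

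Dynorphin is also rich in the patches of striatum called striosomes and in ventral striatum. Of all genes, 0.181% were called for the inhibitor in WT and 0.137% for KO under vehicle. Of 9 striosome genes 2 rose with the inhibitor in WT, Nnat, which codes for neuronatin (1.43 ± 0.17, adjusted p = 0.00103), and Pde1c, a calmodulin-dependent phosphodiesterase (0.95 ± 0.16, adjusted p = 0.0202). With KO, 1 rose, Nnat (1.24 ± 0.18, adjusted p = 0.00451), and Pde1c had 0.76 ± 0.17 (adjusted p = 0.0934). Nnat is also on the list of 10 ventral striatum genes and was its only member to pass. The lists were chosen with earlier results of these data known, so these counts are descriptions. The mean over that list was 8.03 ± 0.34 (SD) in vehicle and 8.81 ± 0.10 in inhibitor WT arrays (n = 5 and 6), and 8.55 ± 0.23 in vehicle and 8.47 ± 0.11 in inhibitor KO arrays (n = 5 and 4). All 10 were positive for the inhibitor (median 0.40) and 8 for KO (median 0.23), where 49.8% and 49.4% of all genes were positive. The part of where in striatum the tissue was taken in the Pdyn values was not tested.

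Markers of other cells also varied among the striatal arrays. The mean over 10 genes of cortical and hippocampal glutamatergic neurons was 8.68 ± 0.52 (SD) in WT vehicle, 8.01 ± 0.41 in WT inhibitor, 8.84 ± 0.12 in KO vehicle and 8.89 ± 0.74 in KO inhibitor arrays. All 10 differences for the inhibitor in WT were negative and 0 passed, where 0.181% of all genes were called. With that mean as a covariate, the Pdyn differences were 0.87 for the inhibitor in WT and 1.37 for KO, beside 0.82 and 1.39 without it. The mean over 9 vascular genes was 8.86, 8.90 and 8.97 on WT inhibitor 10, 11 and 12 and 8.85 on KO vehicle 25, and between 8.24 and 8.55 on the other 16 striatal arrays. The mean over 10 choroid plexus genes was 5.71 and 5.46 on KO vehicle 28 and 30, which had the highest Pdyn of that group, and 8.32, 8.11 and 9.70 on KO vehicle 25, 26 and 29. The relation of the vascular mean to Pdyn over single arrays was tested and is given below. The part of the choroid plexus mean in the Pdyn values was not tested. The difference between a 3′ and a 5′ probe set of Gapdh, which rises as RNA is shortened, averaged 0.39 in vehicle and 0.35 in inhibitor WT striatum, and 0.26 and 0.33 in KO striatum in the same order.

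Factors known to act on Pdyn, and the pathway upstream of them, were looked at next. Of 19 transcription factors and cofactors linked to Pdyn 0 passed in either striatal effect, where 0.181% and 0.137% of all genes were called. Crem, a CREB family member with a cAMP-inducible repressor form, had striatal means of 6.33 ± 0.43 (SD) in vehicle and 6.84 ± 0.25 in inhibitor WT arrays (n = 5 and 6), and of 7.26 ± 0.48 in vehicle and 7.34 ± 0.38 in inhibitor KO arrays (n = 5 and 4). The groups overlapped, and its KO difference was 0.93 ± 0.22 (adjusted p = 0.122). Fosl2, a partner in AP-1, had a KO difference of 1.03 ± 0.29 (adjusted p = 0.258). Creb1 had 0.10 ± 0.06 (adjusted p = 0.952) and Kcnip3, which codes for DREAM, a calcium-binding repressor of Pdyn, -0.17 ± 0.10 (adjusted p = 0.952). Of 25 genes of the cAMP and PKA pathway 1, Pde1c, rose with the inhibitor and 0 passed for KO, where 0.181% and 0.137% of all genes were called. Pde1c is also on the striosome list, and this count too is a description.

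The genes whose striatal pattern was most like that of Pdyn were ranked by Pearson's r over the 20 striatal arrays. These arrays share the group differences that chose Pdyn, so r is a description. Tmem41a, a transmembrane protein gene, came first (r = 0.942), followed by Tarsl2, a threonyl-tRNA synthetase-like gene (0.925), Scg2 (0.890), Rab3c, a small GTPase of secretory vesicles (0.876), and Vmp1, a vacuole membrane protein (0.867). Slc2a13 (0.860), a proton and myo-inositol transporter, Afap1 (0.856), an actin-binding protein, Ptprn (0.854), Abca3 (0.850), a lipid transporter, and Tmem181a (0.849) completed the 10. Scg2 and Ptprn are members of the dense core vesicle list, and Abca3 and Tmem181a are 2 of the 15 genes of the striatal chromosome 17 score. Leaving out arrays by that score is therefore not independent of the pattern of Pdyn. In all, 37 genes had an r above 0.8.

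Tmem41a lay at 9.42, 9.31, 9.32, 9.30 and 9.31 on the 5 WT vehicle arrays, at 9.48, 9.67, 9.63, 9.70, 10.02 and 9.82 on the WT inhibitor arrays, at 9.62, 9.86, 10.03, 9.72 and 9.99 on the KO vehicle arrays and at 9.61, 9.80, 9.96 and 9.88 on the KO inhibitor arrays. As with Pdyn, all 15 other arrays lay above WT vehicle, and KO vehicle 25 was the lowest of its group. Its differences were 0.39 for the inhibitor in WT, 0.51 for KO under vehicle and -0.03 for the inhibitor in KO, beside 0.82, 1.39 and -0.11 for Pdyn. After removal of the group means, r to Pdyn over the 20 arrays was 0.84 for Tmem41a, 0.73 for Tarsl2, 0.79 for Scg2 and 0.55 for Rab3c. For Tmem41a this was the fifth highest of all genes. Without the 4 striatal arrays of doubtful score r was 0.975 for Tmem41a, 0.935 for Tarsl2 and 0.909 for Scg2 over 16 arrays.

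**Figure D4:**
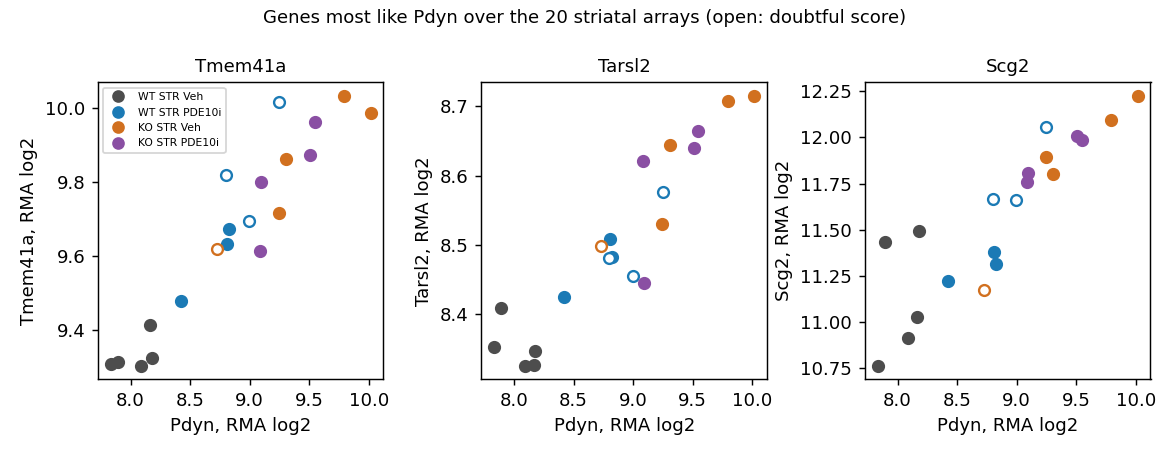
RMA log2 signal of Tmem41a, Tarsl2 and Scg2 (vertical axes) against that of Pdyn (horizontal axes) on the 20 striatal arrays, coloured by group; open circles are the arrays of doubtful score. The genes climb with Pdyn (r = 0.942, 0.925 and 0.890), with the 5 WT vehicle arrays at the lower left and KO vehicle 28 and 30 at the upper right.

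In hippocampus, where Pdyn varied little, likeness was lower. Over the 22 hippocampal arrays the 5 genes with the highest r were Wdfy3 (0.655), Defb7 (0.648), Tnmd (0.625), Wdr27 (0.613) and Stox2 (0.602), and 0 genes had an r above 0.8. None of these 5 was among the 10 striatal genes.

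Deviations of single arrays from their group mean were set against the means of cell class lists, which the choice of Pdyn did not use, in a family of 16 relations tested by permutation. None passed after Benjamini-Hochberg adjustment. With the direct pathway mean in striatum, r was 0.42 over 20 arrays (p = 0.0651, adjusted 0.432; rho = 0.48, p = 0.0334, adjusted 0.322) and 0.37 without the 2 arrays farthest from the median. With the vascular mean in striatum, r was -0.50 (p = 0.0248, adjusted 0.396; rho = -0.34, p = 0.142, adjusted 0.567) and -0.32 without the 2 farthest, and it turned to 0.39 without the arrays of doubtful score. With the dentate mean in hippocampus, r was -0.29 over 22 arrays (p = 0.199, adjusted 0.455; rho = -0.11, p = 0.632, adjusted 0.842). Between striatal and hippocampal arrays of the same number, the deviations of Pdyn had r = -0.12 over 20 pairs (permutation p = 0.599; rho = -0.08, p = 0.728), and -0.00 without the 2 farthest.

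The genes beside Pdyn on chromosome 2 had smaller differences than Pdyn for the inhibitor in WT striatum and for KO in striatum. In RefSeq gene order the 5 measured genes on one side are Ckap2l, Il1a, Il1b, Il1bos and Sirpa, and those on the other are Stk35os1, Stk35, Tgm3, AU015228 and Tgm6. Of these 10, 0 passed limma's test for the inhibitor in WT striatum, for KO in striatum or for KO in hippocampus. Of all genes, 0.181%, 0.137% and 0% were called there, so a count of 0 among 10 says little. Their striatal KO differences ran from -0.14 (Tgm3, adjusted p = 0.972) to 0.08 (Il1b, adjusted p = 0.987). Sirpa, the nearest on its side, had -0.27 ± 0.11 for the inhibitor (adjusted p = 0.389) and -0.06 ± 0.11 for KO (adjusted p = 0.990).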

How the data were processed

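The values were log2 signals as the authors deposited them, covering 45101 probe sets on 42 arrays; per the submitters' processing notes the method was RMA. It normalizes quantiles across arrays, so differences in total RNA are removed, and the files hold no detection call. A genome build is not given in the sources used. Gene names came from the platform annotation, with symbols updated through RefSeq (GRCm38.p6) for 34741 of 34945 single-gene probe sets; 932 listed several genes, 9160 listed none and 64 were controls. Of 249 entries in 20 gene lists, 236 matched a tested gene. Each gene was represented by its probe set of highest mean.

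Groups were compared in R 4.3.3 by limma 3.58.1, using lmFit, eBayes and Benjamini-Hochberg adjustment over 18193 genes (threshold 0.05, both directions), with the 4 groups of a region in one fit and all 8 groups for the region contrast. The fit was tested on simulated data. Permutation tests drew 100000 resamples and looked in both directions. The text names Pdyn, the 10 striatal and 5 hippocampal genes of highest r, the 5 measured neighbours on either side, and list members that passed (up to 4), or else had the smallest p; other list members are named for their role, with their values seen. The gene and the lists were chosen with earlier results of these data known. Counts of non-overlapping groups and region differences outside WT vehicle were added later. Pairing by title number was checked and is reported with the alternatives.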

Additional observations from a re-analysis of the deposited data

Results flagged for a closer look

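Single arrays were looked for that stood apart within their group, in 48 combinations of group and measure, of which Pdyn itself was 1 measure. Chance alone gives about 1 such array in 20 groups. Pdyn gave none in any of the 8 groups. The Gapdh 3′ minus 5′ difference of WT vehicle striatum reached 1.05 on array 4, with the next array at 0.28, and Pdyn on array 4 was 8.09, inside its group. The mean over the shared striatal projection neuron genes in WT inhibitor striatum was 11.22 on array 10, with the next at 11.38, and array 10 also had the lowest Pdyn of that group, 8.42. Over the 20 striatal arrays, deviations of Pdyn from the group means had r = -0.05 with the Gapdh difference (permutation p = 0.806, adjusted 0.986) and r = 0.23 with the shared striatal mean (p = 0.337, adjusted 0.598). With the highest Gapdh difference of every group left out, Pdyn differed by 0.80 for the inhibitor in WT striatum and by 1.44 for KO under vehicle.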

How the results depend on the processing

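Pdyn has 1 probe set, so no other Pdyn probe set could be tried. Alternatives that change only the probe sets of other genes, the genes kept or the groups fitted together cannot move the difference of Pdyn. They are among the alternatives counted here. Over all alternatives (18 to 28 a comparison) its striatal differences moved by less than the SD between arrays: 0.65 to 0.90 for the inhibitor in WT, 1.24 to 1.56 for KO under vehicle, -0.28 to 0.04 for the inhibitor in KO, 0.37 to 0.62 for KO under the inhibitor and 0.78 to 1.10 for the difference of differences. The region difference in WT vehicle was 2.03 to 2.16 and passed throughout (limma adjusted p from 1.33e-14 to 3.89e-08). No hippocampal difference passed under any alternative (lowest limma adjusted p = 0.367). The sign turned for KO under vehicle in hippocampus with each group's highest Gapdh array left out (-0.026), and for the inhibitor in KO hippocampus when single arrays were left out (-0.011 to 0.11; the negative value is without KO inhibitor 36); the cause was not tested.

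Without the arrays of doubtful score, 3 within-group relations turned: r = 0.51 with the indirect pathway mean in striatum (-0.05 with all arrays), 0.39 with the vascular mean in striatum and -0.071 with the shared striatal mean in hippocampus. The dentate mean in striatum then had r = -0.67 over 16 arrays (permutation adjusted p = 0.0227), but rho = -0.57 did not pass (permutation adjusted p = 0.264), and r was -0.42 without the 2 farthest arrays. Between same-numbered arrays of both regions r became 0.13 over 14 pairs.

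Title numbers did not show pairing by a check of likeness. Over 20 same-numbered pairs the deviations of all genes had r from -0.38 to 0.31, 6 above 0.1, and 4 of 20 striatal arrays were most like their own number. Each was set against the 5 or 6 hippocampal arrays of its group, so some such matches arise by chance. Deviations in both regions of a mouse need not be alike, so the check cannot tell whether a number marks a single mouse. With the number as a replicate block, the region difference was 2.15 and 5554 genes were called.

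Counts of genes called by limma moved far more than Pdyn. For the inhibitor in WT striatum, 33 became 769 without the arrays of doubtful score, 195 with array weights, 86 without the high Gapdh arrays, 19 to 21 with other choices of probe sets, without dim genes or with only the groups compared, 10 with the glutamatergic mean as a covariate and 4 to 73 when single arrays were left out. For KO under vehicle, 25 became 145 without the arrays of doubtful score, 87 with weights, 0 without the high Gapdh arrays, 9 with only the groups compared and 8 to 82 without single arrays. For KO under the inhibitor in striatum, 0 became 1187, 1027 and 531 under the first 3 of these, and 0 to 187 without single arrays. For the difference of differences in striatum, 0 became 158, 1 and 10, and 4 with the mean of a gene's probe sets. In hippocampus, weights gave 154 for the inhibitor in WT (from 0) and 658 for KO under the inhibitor (from 1), and leaving out the arrays of doubtful score gave 15 for KO under vehicle (from 0) and 10 for KO under the inhibitor. With every probe set tested, 10983 passed between regions. Hippocampal Pdyn lay near the median signal of its arrays, which limits what a small difference there can show.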
